A study of Mus musculus with 1 sample.

Results

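The genes of cholesterol synthesis, uptake and efflux were a set of 28 genes chosen by symbol, out of 32285 genes listed for the library. The set held 18 genes of synthesis, 4 of intracellular transport and storage, 2 of uptake, 2 of efflux and 2 liver X receptors. All 28 symbols were found, and 27 passed a minimum of 100 unique molecular identifiers (UMIs, each standing for 1 captured RNA molecule) over all retained cells. *Tm7sf2*, with 95 UMIs, did not, and is given by value only.

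The study asked what loss of *Scap* in the pancreas does to exocrine cells. The library described here held the comparison mice alone, which carried the floxed *Scap* alleles (Scap f/f) without Cre and were called wildtype. It was made from the pancreata of 5 to 6 mice at 2 weeks of age, pooled before 10x Genomics 3′ single cell sequencing. The *Scap*-deleted mice were not analysed here, so every comparison below is between cell classes within 1 pool.

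Cholesterol is made from acetyl-CoA. The early enzymes build mevalonate and join its isoprenoid units into farnesyl diphosphate, and the late enzymes make squalene, close it into lanosterol and trim that into cholesterol. When membrane sterol is low, SCAP carries SREBP2 from the endoplasmic reticulum to the Golgi, where it is cleaved and freed to raise transcription of the synthesis genes. Cells also take up lipoprotein cholesterol through receptors, release it from lysosomes with NPC1 and NPC2, store it as esters, and export it through ABC transporters that liver X receptors induce when sterols accumulate.

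Promoter sequences are shown first, because they carry the letters that the sterol-sensing factors of this pathway are known to bind. RefSeq promoters (GRCm38.p6) were found for 21 of the 28 genes, and the 250 bases before each start were searched on both strands. Shares of all promoters are over 32851 promoters of 27025 gene symbols. A gene of the set counted once if any of its promoters matched, and 3 had more than 1, so these shares are not strictly alike. The sterol regulatory element core TCACNCCA occurred in 3.67% of 32851 promoters and in 2 of the 21, those of *Hmgcs1*, 137 to 130 bases before the start, and *Msmo1*, 177 to 170 bases before its RefSeq start. The *Msmo1* site lies inside the gene as annotated in GRCm38 (chr8:64718139-64733792, minus strand), downstream of the annotated start. CCAAT occurred in 33.8% of promoters and in 16 of the 21, and it did not overlap the sterol element in either sequence shown. The liver X receptor direct repeat, GGTNA and another GGTNA after 5 letters of any kind, occurred in 0.621% of promoters and in 1 of the 21, that of *Abca1*, 67 to 53 bases before the start on the opposite strand. Each sequence reads 5′ to 3′ on the strand of its gene, with the matched letters in capitals. They lie at chr13:119690101-119690350 (plus strand), chr8:64733737-64733766 (minus strand, the site and its flanks only) and chr4:53159896-53160145 (minus strand). A match is a description of the letters and no measurement of binding.
Hmgcs1: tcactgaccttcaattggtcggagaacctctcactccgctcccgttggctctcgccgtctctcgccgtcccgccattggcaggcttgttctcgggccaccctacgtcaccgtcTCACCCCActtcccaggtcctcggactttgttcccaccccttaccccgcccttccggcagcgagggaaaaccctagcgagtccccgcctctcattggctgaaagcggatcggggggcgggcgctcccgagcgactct
Msmo1: tctcactattcTCACTCCAtccgcgcagcc
Abca1: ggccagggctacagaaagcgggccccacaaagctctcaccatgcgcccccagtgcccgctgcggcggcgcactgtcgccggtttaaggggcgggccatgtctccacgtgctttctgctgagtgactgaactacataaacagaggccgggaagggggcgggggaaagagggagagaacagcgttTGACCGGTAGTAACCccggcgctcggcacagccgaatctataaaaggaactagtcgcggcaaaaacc

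The library held 51540177 UMIs in 11789 barcodes. Of these, 10947 barcodes were retained, which had a UMI total between 800 and 100000 and a mitochondrial share under 15%, with a median of 2650 UMIs. Cells were gated by marker genes into classes, each called by the cell type its markers name. These were 447 acinar-like, 372 acinar-like with low nuclear RNA, 59 ductal-like, 5338 fibroblast-like, 114 mural-like, 534 mesothelial-like, 266 endothelial-like, 41 Schwann-like, 894 T cell-like, 383 B cell-like, 24 macrophage-like, 50 dendritic-like and 405 red cell-like cells, and 17.99% of cells had no class. No marker of a class's own list was at 0 in that class, but the gate used these lists, so this is no separate check. Both acinar-like classes, gated by enzyme UMIs, had no such list. B cell markers stood at 0.254, 0.279 and 0.258 of their B cell-like level in fibroblast-like, mural-like and endothelial-like cells. Mural markers stood at 0.107 of their mural-like level in endothelial-like cells. Median depth ran from 1401 UMIs in B cell-like to 16999 in ductal-like cells, and digestive enzymes took 39.4% of the UMIs of acinar-like, 49.6% of low nuclear RNA acinar-like and 7.51% of ductal-like cells. A level is therefore given as UMIs of a gene per 1000000 UMIs of the class (CPM), the UMIs of 29 digestive enzyme genes being left out of that total. Levels are not scaled for gene length, so they are compared between classes and not between genes. There was 1 library, so no test was possible, and the 95% intervals (exact Poisson for levels, exact binomial for ratios and shares) cover counting error only.

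Synthesis genes were highest in ductal-like cells. Their 18 genes summed to 799 CPM (752.5 to 848.5, 1082 UMIs) in the 59 ductal-like cells. The next classes lay close together, with 411 (330.6 to 505.3) in dendritic-like, 389.6 (368.2 to 412) in mesothelial-like, 369 (310.1 to 435) in mural-like, 360.4 (343.2 to 378.2) in acinar-like and 342 (333.5 to 350.7) in fibroblast-like cells. Low nuclear RNA acinar-like cells stood at 309 (275.2 to 345), Schwann-like at 298 (192.6 to 439.3), endothelial-like at 241 (218.8 to 264.9), B cell-like at 224 (190.8 to 261.5), T cell-like at 217 (197.6 to 237.4) and macrophage-like cells at 183 (110.4 to 286.2). The ductal-like interval was above that of every other class, and the intervals of all neighbours below it in that order overlapped.

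Free RNA gives some UMIs in any droplet, and red cell-like cells, which should hold little of these transcripts, served as the reading of it. They held 0.0988 synthesis UMIs per cell (0.0706 to 0.135, 40 UMIs in 405 cells), against 18.3 in ductal-like, 3.70 in acinar-like, 1.15 in fibroblast-like and 0.525 in T cell-like cells. Of the 28 genes, 28 had a per-cell interval above the red cell-like one in acinar-like cells, 27 in ductal-like, 26 in endothelial-like, 24 in mesothelial-like, 22 in fibroblast-like, 15 in T cell-like and 9 in B cell-like cells. The same share over all genes was not computed, so these counts are no result about the set. In fibroblast-like cells the 6 genes that were not above it were *Pmvk*, *Fdft1*, *Lss*, *Tm7sf2*, *Scarb1* and *Abcg1*. Their fibroblast-like levels are near background, and ratios against them are read with that limit. This holds for every class set against fibroblast-like cells below, since the intervals of those ratios do not cover background. The deeper classes also hold more UMIs per cell of every kind, and the part of depth in these counts was not tested. Transcripts of other classes also differed: fibroblast markers gave 12334 UMIs in 447 acinar-like cells and 654 in 405 red cell-like cells. An interval above the red cell-like one is thus no proof that a class expresses the gene.

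**Figure D1:**
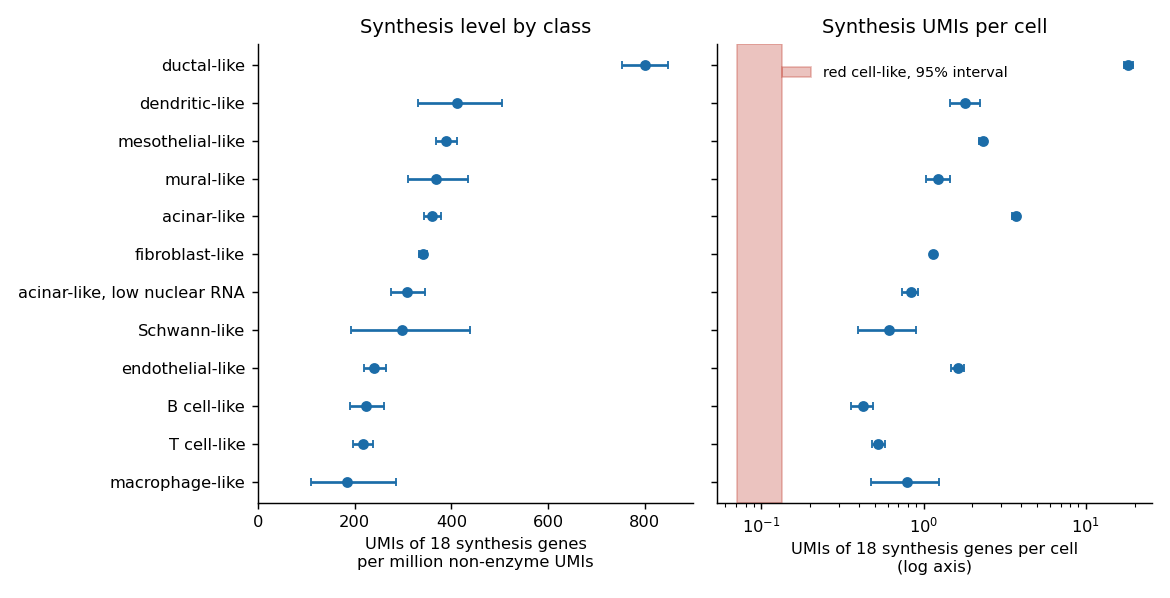
Left, UMIs of the 18 synthesis genes per 1000000 non-enzyme UMIs (CPM) in each class; right, the same UMIs per cell on a log axis, with the red cell-like 95% interval shaded. Points are class values and bars 95% counting intervals. Ductal-like cells stand apart at 799 CPM, and every class lies above the red cell-like band.

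The early enzymes run from acetyl-CoA to farnesyl diphosphate. *Hmgcs1*, the HMG-CoA synthase that SREBP2 is known to control, stood at 140 CPM (121.1 to 161.8, 190 UMIs) in ductal-like cells, 105.8 in mesothelial-like, 76.6 in fibroblast-like, 40.1 in acinar-like and 20.8 in T cell-like cells. It lies at chr13:119690379-119708260 (GRCm38, plus strand). Ductal-like cells were highest for it, though their interval overlapped that of the 41 Schwann-like cells. *Idi1*, the isopentenyl diphosphate isomerase, was at 114 CPM in dendritic-like cells on 25 UMIs, 75.4 in ductal-like and 23.7 in fibroblast-like cells. The kinase genes *Mvk* and *Pmvk* went apart, since *Mvk* was at 10.3 CPM in both ductal-like and fibroblast-like cells, whereas *Pmvk* was at 42.9 in the first and 9.21 in the second. *Acat2*, the acetyl-CoA acetyltransferase, was at 22.9 in ductal-like and 8.06 in acinar-like cells, and reads it shares with its near-identical neighbour *Acat3* may make its level uncertain. *Fdps*, farnesyl diphosphate synthase, was at 53.9 in ductal-like and 22.01 in fibroblast-like cells.

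The late enzymes start with *Fdft1*, the squalene synthase at the branch point to sterols, at chr14:63145150-63179578 (GRCm38, minus strand). It was at 106 CPM (89.7 to 125.3, 144 UMIs) in ductal-like, 56.6 (260 UMIs) in acinar-like and 13.0 (233 UMIs) in fibroblast-like cells. Both epithelial classes were thus well above the fibroblast-like class, whose per-cell *Fdft1* (0.0437, 0.0382 to 0.0496) overlapped the red cell-like value (0.0198, 0.00853 to 0.0389). *Lss*, the lanosterol synthase that closes the sterol rings, showed the same order with 12.6, 8.06 and 2.57 CPM. *Msmo1*, the methylsterol oxidase, was at 79.1 in ductal-like, 26.6 in acinar-like and 28.8 in fibroblast-like cells. *Cyp51*, the lanosterol demethylase, was at 50.2, 21.4 and 17.9 in the same classes. *Tm7sf2*, a sterol reductase, rested on 15, 11 and 23 UMIs there.

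The other enzymes did not all go one way between acinar-like and fibroblast-like cells. *Nsdhl*, a sterol dehydrogenase, was at 7.41 CPM (5.13 to 10.3) in acinar-like, 12.4 (10.9 to 14.2) in fibroblast-like and 22.9 (15.6 to 32.5) in ductal-like cells. *Hsd17b7*, which works beside it in removing methyl groups, was at 12.2 (9.22 to 15.8) in acinar-like, 22.2 (20.1 to 24.5) in fibroblast-like and 22.9 in ductal-like cells. *Ebp*, the sterol isomerase, was at 15.5 (12.1 to 19.5) in acinar-like, 26.2 (23.9 to 28.7) in fibroblast-like and 27.3 in ductal-like cells. For these 3 genes the acinar-like interval was below the fibroblast-like one. *Dhcr7* was the other way round, at 19.6 (15.8 to 24.1) in acinar-like, 10.6 (9.16 to 12.2) in fibroblast-like and 19.9 (13.1 to 29.0) in ductal-like cells. *Sqle*, the squalene epoxidase that is a slow step of the pathway, was at 19.2 in acinar-like, 22.8 in fibroblast-like, 41.4 in ductal-like and 8.37 in endothelial-like cells. *Mvd*, the mevalonate diphosphate decarboxylase, was at 7.41 (5.13 to 10.3) in acinar-like, 6.03 (4.95 to 7.28) in fibroblast-like, 11.8 (6.76 to 19.2) in ductal-like and 2.53 (1.09 to 4.98) in mesothelial-like cells.

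The early and late sums gave the classes a different order below the ductal-like one. Early enzymes were at 358 CPM (326.4 to 390.9) in ductal-like, 216 (171.7 to 268) in mural-like, 202 (187 to 218.7) in mesothelial-like, 156 (150 to 161.7) in fibroblast-like and 135 (124.2 to 145.7) in acinar-like cells. Late enzymes were at 442 (407.1 to 478.7) in ductal-like, 226 (212.2 to 239.9) in acinar-like, 187 (172.5 to 202.9) in mesothelial-like, 186 (179.9 to 192.6) in fibroblast-like and 153 (116 to 197.4) in mural-like cells. Acinar-like cells were thus lowest of these 5 classes for the first sum, and next to ductal-like cells for the second. The acinar-like interval was below the fibroblast-like one for the early sum and above it for the late sum, but with enzyme UMIs included in the total the late sum was at 136.9 in acinar-like and 184.9 in fibroblast-like cells.

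**Figure D2:**
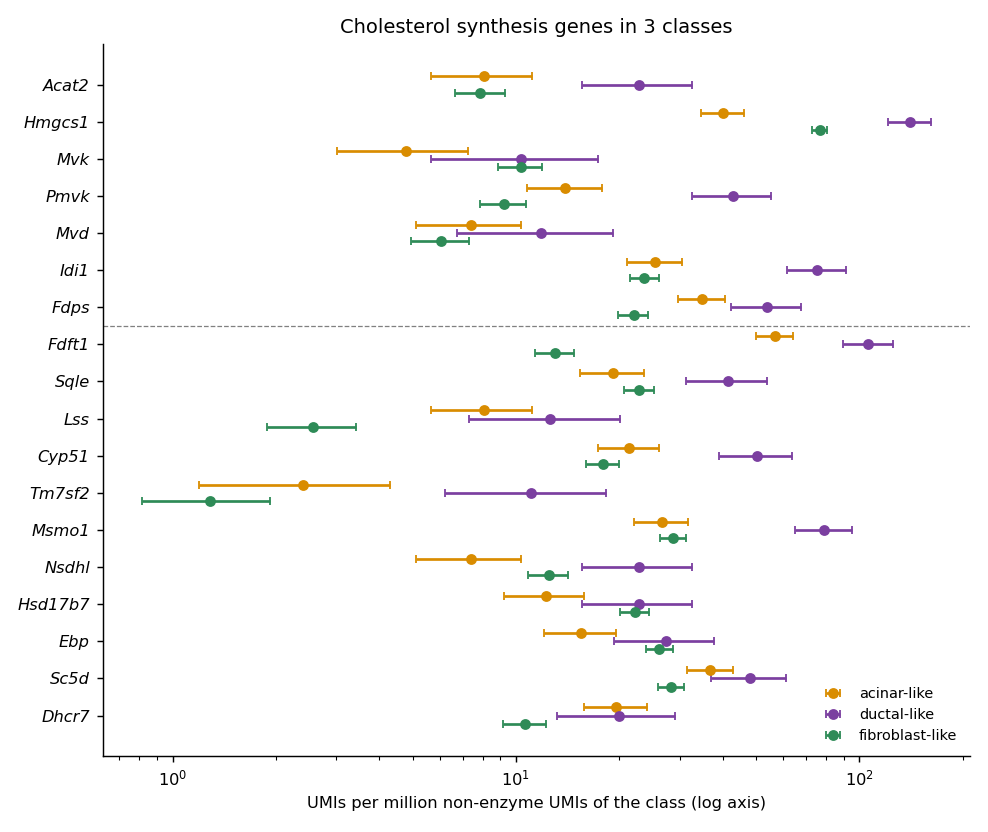
Levels of the 18 synthesis genes, in UMIs per 1000000 non-enzyme UMIs (CPM) on a log axis, in acinar-like, ductal-like and fibroblast-like cells; bars are 95% counting intervals and the dashed line parts early from late enzymes. Ductal-like values are the highest for most genes, and *Fdft1* and *Lss* are higher in both epithelial classes than in fibroblast-like cells.

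The mix of synthesis transcripts also differed between classes. *Hmgcs1* made up 22.4% of synthesis UMIs in fibroblast-like cells (21.4 to 23.5), 17.6% in ductal-like (15.3 to 19.96) and 11.1% in acinar-like cells (9.65 to 12.7). *Fdft1* made up 3.81% (3.34 to 4.32) in fibroblast-like, 13.3% (11.3 to 15.5) in ductal-like and 15.7% (14.0 to 17.6) in acinar-like cells. Among the fibroblast-like, ductal-like and acinar-like classes only, the acinar-like class was lowest for the first gene and highest for the second. *Idi1* took 27.8% (18.9 to 38.2) of the 90 synthesis UMIs of dendritic-like cells, against 6.93% in fibroblast-like cells.

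Between acinar-like and fibroblast-like cells, the synthesis genes together were at a similar level, with a ratio of 1.05 (0.998 to 1.11), while single genes went both ways. Of 27 genes compared, 4 were at least 2-fold higher in acinar-like cells, beside 19.6% of all 13496 genes compared, and 5 were at least 2-fold lower, beside 23.1%. Both shares of the set were near the background. The median ratio was 1.02 over the set, 1.08 over its synthesis genes and 0.984 over all genes. Higher were *Fdft1* (4.35, 3.63 to 5.22), *Scarb1* (3.17), *Lss* (3.14, 1.98 to 4.95) and *Abcg1* (2.54). For all 4 the fibroblast-like level was near background, so the size of these ratios is uncertain. Lower were *Lrp1* (0.038, 0.0301 to 0.0473), *Abca1* (0.284), *Nr1h3* (0.427), *Npc2* (0.445) and *Mvk* (0.464). *Hmgcs1* stood just inside the 2-fold limit at 0.523 (0.446 to 0.611), and past it at 0.187 (0.0807 to 0.370) below 10000 UMIs and 0.319 with enzyme UMIs in the denominator. The early genes summed to a ratio of 0.864 (0.791 to 0.943) and the late genes to 1.21 (1.13 to 1.30), but the late ratio did not keep its direction. It was 0.967 with the study's own upper limit of 10000 UMIs per cell and 0.740 with enzyme UMIs kept in the denominator, whereas the early ratio lay between 0.528 and 0.983 under every alternative run. The ratio of all synthesis genes moved with the cells and the denominator chosen: at the limit of 10000 UMIs it was 0.791, with enzyme UMIs kept in the denominator 0.644, and in acinar-like cells above 20000 UMIs 1.19. Fibroblast markers stood in acinar-like cells at 0.0572 of their fibroblast-like level, and *Lrp1*, at 0.038, was below that. The gate itself bounded the marker value, since acinar-like cells had to hold under 0.6% fibroblast marker UMIs. The part of these markers in the levels was not tested.

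Ductal-like cells were above acinar-like cells for most of the synthesis set. Of 27 genes, 12 were at least 2-fold higher, beside 23.9% of all genes, and 1 was at least 2-fold lower, beside 13.1%. That 1 gene, *Abcg1*, rested on 3 ductal-like UMIs and its interval held 1 (0.0707 to 1.18). The median ratio was 1.88 over the set, 2.16 over its synthesis genes and 1.29 over all genes, and the synthesis sum stood at 2.22 (2.05 to 2.40). The highest ratios were those of *Stard4*, a cytosolic sterol carrier (4.15, 3.11 to 5.56), *Hmgcs1* (3.50, 2.84 to 4.31), *Nsdhl* (3.09), *Pmvk* (3.07), *Msmo1* (2.97) and *Idi1* (2.96). *Dhcr7*, the reductase that completes one branch of the pathway, had a ratio of 1.02 (0.636 to 1.58), and *Sc5d*, a sterol desaturase, one of 1.30, both with intervals that held 1. The early genes had the larger ratio, 2.66 (2.35 to 2.996) against 1.96 (1.77 to 2.17) for the late genes. Ductal markers stood in acinar-like cells at 0.143 of their ductal-like level.

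**Figure D3:**
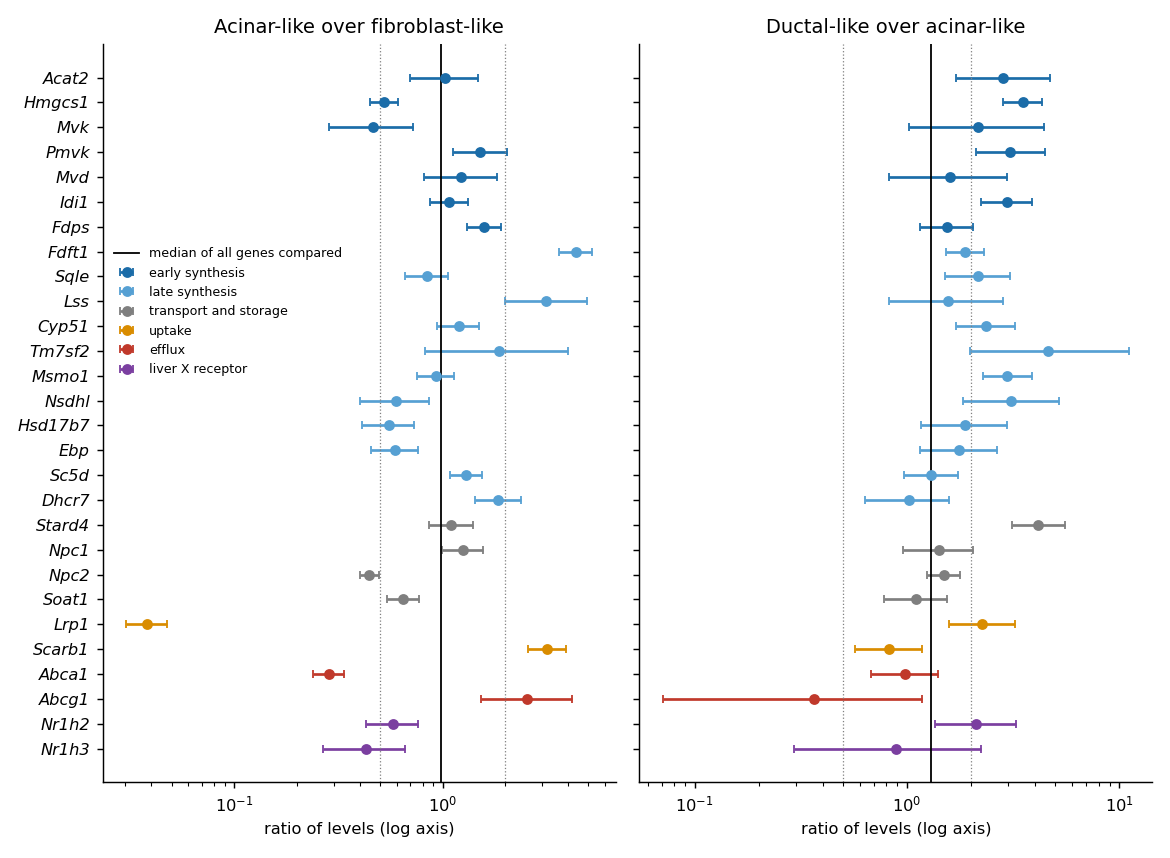
Ratio of the level of each gene in acinar-like over fibroblast-like cells (left) and in ductal-like over acinar-like cells (right), on log axes, coloured by role, with 95% counting intervals. The solid line is the median ratio of all genes compared (0.984 left, 1.29 right) and dotted lines mark 2-fold. *Lrp1* is far to the left in the first panel, and most synthesis genes lie right of the line in the second.

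Against fibroblast-like cells, 10 of the 27 genes were at least 2-fold higher in ductal-like cells, beside 25.2% of all genes, and 3 were at least 2-fold lower, beside 17.0%. The synthesis sum had a ratio of 2.34 (2.19 to 2.49), with a median of 1.83 over the set and 1.29 over all genes. *Fdft1* (8.18, 6.595 to 10.1), *Lss* (4.89), *Pmvk* (4.65) and *Stard4* (4.55) had the largest ratios, and *Tm7sf2*, under the UMI minimum, had 8.63 (4.19 to 17.3). *Lrp1* (0.0858), *Abca1* (0.279) and *Nr1h3* (0.378) were the 3 lower genes. Below 10000 UMIs, where 21 ductal-like cells were left, *Nr1h3* was at 1.496 (0.180 to 5.48). Fibroblast markers stood in ductal-like cells at 0.0245 of their fibroblast-like level, a value bounded by the gate, which kept ductal-like cells under 0.6% fibroblast marker UMIs.

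Depth moved with the synthesis level within the epithelial classes. In acinar-like cells the sum was 214 CPM in the 126 cells with up to 5000 UMIs, 306 in 76 cells from 5000 to 10000, 257 in 110 cells from 10000 to 20000, and 408 in the 135 cells above that. The ratio of the deepest to the shallowest cells was 1.90 (1.40 to 2.64), beside a median of 1.18 over all genes, and the levels between did not rise in order. *Hmgcs1*, with 184 UMIs in acinar-like cells, went from 10.0 through 17.5 and 25.2 to 49.1 over the same cells. In the shallowest cells it rested on very few UMIs, near the red cell-like value per cell, so the size of this rise is not resolved. In ductal-like cells the sum was 600 (32 cells) up to 20000 UMIs and 844 (27 cells) above. Fibroblast-like cells differed less, with 326, 353 and 333 in cells up to 2000, from 2000 to 5000 and above 5000 UMIs. Among cells above 20000 UMIs only, ductal-like cells were still at 2.07 (1.90 to 2.25) times the acinar-like synthesis sum, with 12 genes at least 2-fold higher (11 with intervals above 1), beside 24.3% of all genes, and 1 lower (interval holding 1), beside 13.1%, *Hmgcs1* at 2.98 and *Stard4* at 4.001.

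**Figure D4:**
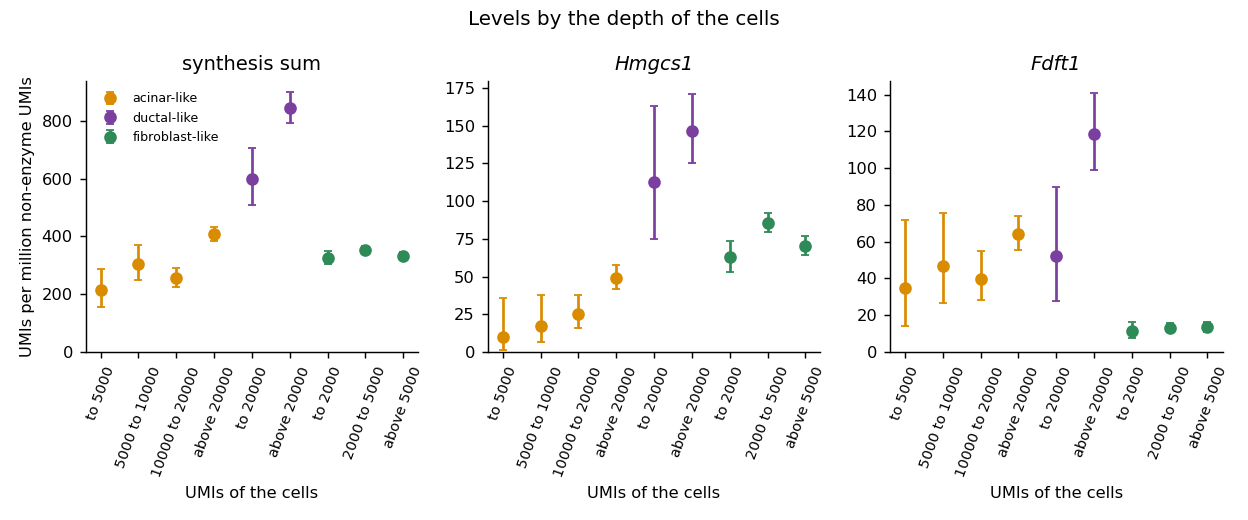
Levels of the synthesis sum, *Hmgcs1* and *Fdft1*, in UMIs per 1000000 non-enzyme UMIs (CPM), in acinar-like, ductal-like and fibroblast-like cells split by the UMIs of each cell; bars are 95% counting intervals. The acinar-like sum runs from 214 in the shallowest to 408 in the deepest cells, and fibroblast-like values stay between 326 and 353.

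Acinar-like cells with low nuclear RNA, split from the others by their *Malat1* and *Neat1* share, had a synthesis sum at 0.856 (0.756 to 0.968) of the other acinar-like cells. Of 27 genes, 0 were at least 2-fold higher, beside 3.64% of all genes, and 3 were at least 2-fold lower, beside 29.6%. These were *Lss* (0.124, 1 UMI in the low nuclear class), *Acat2* and *Hsd17b7*, and the intervals of the last 2 held 1. The median over all genes was 0.716, so the synthesis set stood slightly above it.

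Transport and storage genes peaked outside the acinar-like class. *Stard4* was highest in endothelial-like cells at 98.8 CPM (84.7 to 114, 177 UMIs), with ductal-like cells next at 80.5 (66.1 to 97.2) and their intervals overlapping. It was at 36.3 in mesothelial-like, 35.1 in T cell-like, 19.4 in acinar-like and 17.7 in fibroblast-like cells. *Npc1*, the lysosomal membrane protein that exports cholesterol, was at 52.7 (45.0 to 61.4) in mesothelial-like and 17.6 in fibroblast-like cells, with 59.5 on 5 UMIs in Schwann-like cells. *Npc2*, its soluble lysosomal partner, was at 1119 (983 to 1268, 245 UMIs) in dendritic-like, 434 in macrophage-like, 329 in mesothelial-like, 195 in fibroblast-like and 86.7 in acinar-like cells. The dendritic-like interval was above that of every other class. *Soat1*, which esterifies cholesterol for storage, was at 125 (66.8 to 214.5) in macrophage-like cells on 13 UMIs and at 66.0 in mesothelial-like cells.

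The uptake receptors each had 1 leading class. *Lrp1*, an endocytic receptor for lipoprotein remnants and many other ligands, at chr10:127538161-127621148 (GRCm38, minus strand), stood at 465 CPM (454.8 to 474.8, 8321 UMIs) in fibroblast-like cells. Macrophage-like cells followed at 260.5 and mesothelial-like cells at 247, while acinar-like cells were at 17.6. T cell-like cells held 0.0168 *Lrp1* UMIs per cell (0.00939 to 0.0277), at the red cell-like value of 0.0148 (0.00544 to 0.0323), so this is read as background. With every cell thinned to 800 UMIs, 30.4% of fibroblast-like and 0.336% of T cell-like cells had an *Lrp1* UMI, against 67.4% and 1.57% before thinning and 1.23% of thinned red cell-like cells.

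*Scarb1*, the receptor for high-density lipoprotein, at chr5:125277087-125341094 (GRCm38, minus strand), stood at 346.5 CPM (319.8 to 374.8, 621 UMIs) in endothelial-like cells. It was at 34.9 in acinar-like, 29.1 in mesothelial-like and 11 in fibroblast-like cells, and no other class had an interval that reached the endothelial-like one. Thinned to 800 UMIs, 25.6% of endothelial-like and 0.881% of fibroblast-like cells had a *Scarb1* UMI, against 64.7% and 3.50% before thinning. In red cell-like cells the thinned share was 0.247%.

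The efflux genes were divided between vascular and immune classes. *Abca1*, which loads cholesterol onto lipid-poor apolipoprotein, at chr4:53030787-53159895 (GRCm38, minus strand), was at 318 CPM (219.1 to 447.1, 33 UMIs) in macrophage-like and 271 (247.6 to 296.4, 486 UMIs) in endothelial-like cells. These did not differ beyond their intervals, with a ratio of 0.852 (0.598 to 1.25) for endothelial-like over macrophage-like cells. Fibroblast-like cells were at 111 (1993 UMIs), B cell-like at 96.0 and T cell-like cells at 11.1. *Abcg1*, which passes cholesterol to high-density lipoprotein, at chr17:31057675-31117988 (GRCm38, plus strand), was at 292 (225.1 to 373.3, 64 UMIs) in dendritic-like cells, where *Abca1* had 1 UMI. It was at 76.4 in endothelial-like, 67.5 in macrophage-like, 49.0 in T cell-like and 2.40 in fibroblast-like cells. Thinned, 26.0% of dendritic-like and 0.169% of fibroblast-like cells had an *Abcg1* UMI (56% and 0.768% before thinning), and 0 of 405 red cell-like cells did, where a count of 0 allows up to 3 cells, or 0.741%. The 2 efflux genes thus had different leading classes.

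Of the liver X receptors, the broadly expressed *Nr1h2* ran from 12.6 CPM in acinar-like to 37.9 in endothelial-like cells. *Nr1h3* was highest in fibroblast-like cells at 11.7 (10.2 to 13.4, 210 UMIs), but only 6 other classes had an interval below theirs. Mural-like cells overlapped them at 7.90 (1.63 to 23.1). Macrophage-like cells, with 0 UMIs, had an interval that ran up to 35.6, so they were not resolved as lower. In 162 fibroblast-like cells with *Rspo3* and *Cxcl14*, *Nr1h3* stood at 37.5 (23.2 to 57.4, 21 UMIs). It was at 10.8 in 1503 cells with at least 2 of *Pi16*, *Pcolce2*, *Dpp4* and *Cd55*, and at 3.46 in 369 cells with *Mfap4* and *Meox2*. These subsets were picked for description after their values were seen.

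**Figure D5:**
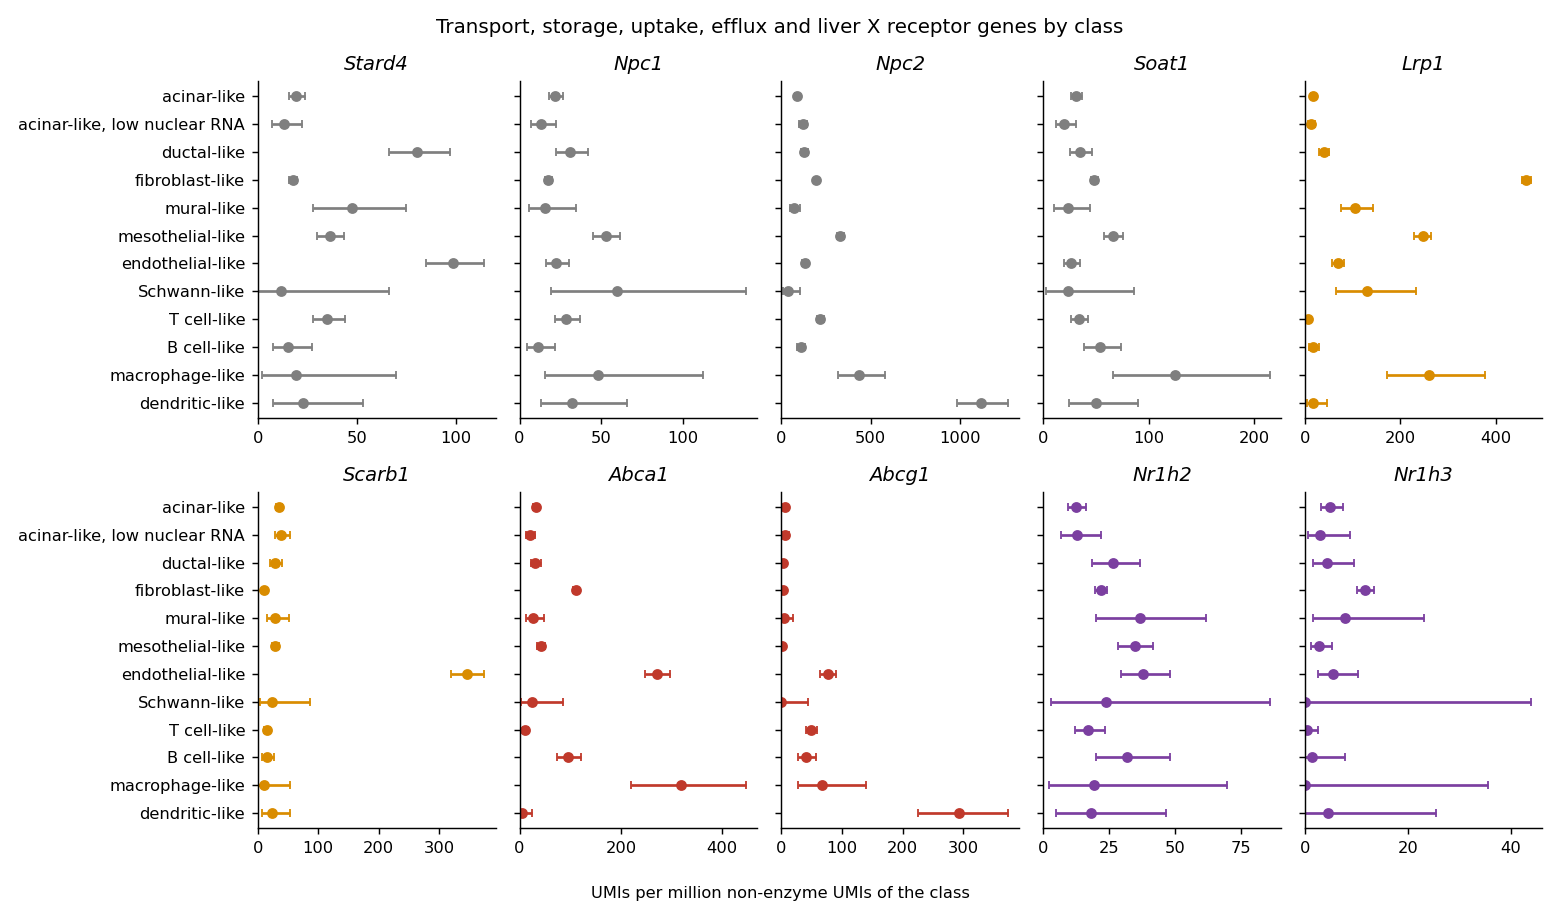
Levels of the 10 transport, storage, uptake, efflux and liver X receptor genes in each class, in UMIs per 1000000 non-enzyme UMIs (CPM), with 95% counting intervals; the axes differ between panels. *Lrp1* is highest in fibroblast-like, *Scarb1* in endothelial-like and *Abcg1* in dendritic-like cells.

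Endothelial-like cells, set against fibroblast-like cells, had 5 of 27 genes at least 2-fold higher, beside 20.4% of all genes, and 6 at least 2-fold lower, beside 15.1%. The higher genes were *Abcg1* (31.8, 22.4 to 45.9), *Scarb1* (31.5, 26.8 to 37.1), *Stard4* (5.58), *Pmvk* (2.48) and *Abca1* (2.44, 2.20 to 2.69). The lower genes were *Lrp1* (0.150), *Hsd17b7* (0.201), *Sqle* (0.366), *Idi1* (0.424), *Cyp51* (0.436) and *Nr1h3* (0.476), 4 of them synthesis genes. Their synthesis sum had a ratio of 0.705 (0.638 to 0.777), with the median over all genes at 1.19, so *Scarb1* and both efflux genes were higher and the synthesis sum lower in these cells.

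Mesothelial-like cells had 3 of 27 genes at least 2-fold higher than fibroblast-like cells, beside 15.1% of all genes, and 4 at least 2-fold lower, beside 10.7%. Higher were *Npc1* (2.99), *Scarb1* (2.64) and *Stard4* (2.05), and lower were *Nr1h3* (0.242), *Abcg1* (0.263, interval holding 1), *Abca1* (0.377) and *Mvd* (0.419). The synthesis sum was at 1.14 (1.07 to 1.21), close to the median over all genes of 1.09. Fibroblast markers stood in mesothelial-like cells at 0.557 of their fibroblast-like level, and their part in these levels was not tested.

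T cell-like cells had 1 gene at least 2-fold higher than fibroblast-like cells, beside 20.4% of all genes, which was *Abcg1* (20.4, 14.2 to 29.8). They had 7 at least 2-fold lower, beside 32.2%, namely *Lrp1* (0.0149), *Nr1h3* (0.0394, 1 UMI), *Abca1* (0.0997), *Hsd17b7* (0.208), *Hmgcs1* (0.272), *Sqle* (0.466) and *Idi1* (0.469). The synthesis sum was at 0.634 (0.576 to 0.697), below the median over all genes of 0.960.

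The 24 macrophage-like cells had 5 genes at least 2-fold higher than fibroblast-like cells, beside 19.6% of all genes, and 11 at least 2-fold lower, beside 44.4%. Of the higher genes, *Abcg1* (28.1), *Abca1* (2.86), *Soat1* (2.58) and *Npc2* (2.23) had intervals above 1 and *Npc1* (2.73) did not. None of the 11 lower genes had an interval below 1, so these were not resolved in so few cells. The 50 dendritic-like cells had an *Abcg1* ratio of 122 (81.4 to 184), *Npc2* of 5.74 (5.02 to 6.54) and *Idi1* of 4.82 (3.08 to 7.22), with *Lrp1* at 0.0393 and *Abca1* at 0.0410. This class was picked for description after its values were seen.

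Within fibroblast-like cells, those with *Mfap4* and *Meox2* had a lower synthesis sum (239 CPM) than those with at least 2 of *Pi16*, *Pcolce2*, *Dpp4* and *Cd55* (377.5). The ratio was 0.632 (0.563 to 0.707). Of 27 genes, 1 was at least 2-fold higher, beside 9.22% of all genes (*Abcg1*, 2.87, interval holding 1), and 5 were at least 2-fold lower, beside 11.2%. The lower genes were *Mvk* (0.253, 5 and 97 UMIs), *Nr1h3* (0.319), *Idi1* (0.386), *Hsd17b7* (0.437) and *Lss*, which had 0 UMIs.

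Cycling cells, those with at least 2 UMIs of *Mki67*, *Top2a*, *Cenpf* and *Birc5*, had a lower synthesis sum in fibroblast-like cells, and in immune-like cells the interval of the ratio held 1. They were set against non-cycling cells, which had no UMI of these genes, and cells with 1 such UMI were left out. Cycling cells were deeper, with medians of 3918 against 2580 UMIs in fibroblast-like and 3652 against 1549 in immune-like cells. The part of this depth in the ratios was not tested. Over all genes the median ratio was 1.003 in fibroblast-like and 0.929 in immune-like cells. In fibroblast-like cells, 222 cycling against 4881 non-cycling cells had a ratio of 0.871 (0.780 to 0.970). There, 0 of the set were at least 2-fold higher, beside 11.4% of all genes, and 3 were at least 2-fold lower, beside 9.75%: *Mvd* (0.263), *Sc5d* (0.440) and *Abca1* (0.477). In immune-like cells, 149 cycling against 1157 non-cycling cells had a ratio of 1.04 (0.867 to 1.24), with 1 gene at least 2-fold higher, beside 10.8% of all genes, and 5 at least 2-fold lower, beside 17.3%. The higher gene was *Stard4* (2.02, 1.28 to 3.14), which also stood at 1.77 in cycling fibroblast-like cells. T cell-like cells made up 66.4% of cycling and 63.4% of non-cycling immune-like cells.

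Of 7 genes of the SREBP machinery (*Scap*, *Srebf1*, *Srebf2*, *Insig1*, *Insig2* and the site proteases *Mbtps1* and *Mbtps2*), 1 was at least 2-fold higher and 0 lower in acinar-like than in fibroblast-like cells, beside the 19.6% and 23.1% of all genes given above. That gene was *Insig1*, which retains SCAP in the endoplasmic reticulum when sterol is plentiful, at 93.7 against 36.1 CPM (2.59, 2.29 to 2.93). *Scap* was at 47.3 against 26.3 (1.80), and *Srebf2*, which encodes SREBP2, had a ratio of 0.989. Ductal-like cells had *Insig1* at 46.5 CPM (0.497 of the acinar-like level) and *Insig2* at 66.5 CPM against 28.5 (2.33), so both INSIG genes went opposite ways. All these ratios leave enzyme UMIs out of the total. Keeping them lowers every acinar-like level, and no alternative was run for these genes, so the 2-fold calls that involve acinar-like cells may depend on it. In endothelial-like cells *Scap* was at 2.14 of the fibroblast-like level, and in T cell-like cells *Insig1* was at 0.333.

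Among 28 further genes of cholesterol handling, 21 could be compared between acinar-like and fibroblast-like cells, with 4 at least 2-fold higher and 5 lower and a median ratio of 1.13, shares near the 19.6% and 23.1% of all genes. Of the same 21 genes, 5 were higher and 6 lower in ductal-like cells (beside 25.2% and 17.0% of all genes), 7 and 6 in endothelial-like (20.4% and 15.1%), 5 and 2 in mesothelial-like (15.1% and 10.7%), 5 and 7 in T cell-like (20.4% and 32.2%) and 8 and 9 in macrophage-like cells (19.6% and 44.4%), each against fibroblast-like cells. In macrophage-like cells, 4 of the 8 and 3 of the 9 had intervals clear of 1. For acinar-like over fibroblast-like cells, *Tmem97*, a sterol-responsive membrane protein of the endoplasmic reticulum, had the largest ratio of the list at 891 against 35.2 CPM (25.3, 23.3 to 27.6), followed by *Nceh1*, a cholesteryl ester hydrolase (11.2). In the same comparison *Cyp27a1*, a sterol hydroxylase that makes liver X receptor ligands, was at 0.106, and *Vldlr*, a lipoprotein receptor, at 0.282. Ratios of these further genes also leave enzyme UMIs out and were not rerun under any alternative. *Cd36*, a scavenger receptor, had a ratio to fibroblast-like cells of 314 (230 to 440) in endothelial-like and 430 in macrophage-like cells. Against fibroblast-like cells, *Ch25h*, which makes an oxysterol, was at 17.3 in mesothelial-like cells, and *Gramd1b*, a carrier of plasma membrane cholesterol, at 10.1 in T cell-like cells.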

How the data were processed

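The deposited UMI counts of 1 library (pooled pancreata of 5 to 6 Scap f/f mice) were used as the authors made them with Cell Ranger 7.1.0, on the mm10 build according to the submitters' processing notes. Its default settings count intronic reads. Removal of free RNA could not be seen in the deposited counts, which were whole numbers. The study kept cells below 10000 UMIs, and a limit of 100000 was used here because deep acinar-like and ductal-like cells lie above the former.

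Each cell joined the class of which most distinct markers were detected (at least 3, and 2 more than any other class), except that acinar-like cells needed 20% digestive enzyme UMIs and were divided at 0.3% *Malat1* and *Neat1* UMIs, fibroblast-like cells 0.6% fibroblast marker UMIs, and red cell-like cells 5% globin list UMIs. These limits were set on marker counts, and 102 acinar-like cells lay near the nuclear RNA limit (0.2% to 0.4%). All classes other than fibroblast-like and mesothelial-like had to lie under the 0.6% fibroblast marker limit. Unsupervised clustering gave 33 clusters, each named by the most common gated class of its cells. The class was the same in 97.2% of 8761 cells classed both ways. Part of this share follows from the naming, and cells without a class by either way are left out of it. The cluster named ductal-like held 153 cells, 58 of them gated as ductal-like, and the endothelial-like one 442, with 262 gated so. Endocrine, neutrophil, mast, NK and adipocyte classes were left out as too small. Scrublet marked 537 cells (4.91%) as doublets, which were kept. UMIs were summed per class, and ratios were counted as past 2-fold among genes with at least 100 UMIs over the retained cells. All 28 genes were named, and others only from fixed lists. Python 3.11.15, numpy 2.4.6, scipy 1.17.1, pandas 2.3.3, scanpy 1.11.5, leidenalg 0.10.2 and matplotlib 3.10.9 were used. The interval code was tested on simulated data. The genes, lists and comparisons were chosen with earlier results of these data known. Alternatives were other UMI, mitochondrial and gate limits, other denominators, clustering, doublet removal and thinning.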

Additional observations from a re-analysis of the deposited data

How the results depend on the processing

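No paired analysis was possible because there was 1 library, and for the same reason no replicate could be left out. The late synthesis ratio, acinar-like over fibroblast-like, turned from above 1 to 0.967 at an upper limit of 10000 UMIs and to 0.740 with all UMIs in the denominator. It was 1.05 as a mean of per-cell levels, 1.09 with classes by clustering and 1.37 above 20000 UMIs. The early ratio was 0.584, 0.528, 0.652, 0.721 and 0.983 under these 5 settings in the same order. Among the comparisons rerun, no other ratio of sums whose interval excluded 1 turned. The acinar-like over fibroblast-like synthesis ratio, whose interval held 1, was 0.791 at an upper limit of 10000 UMIs, 0.644 with all UMIs in the denominator, 0.864 as a mean of per-cell levels and 0.921 with classes by clustering, and the cause was not tested.

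At the 10000-UMI limit, the genes at least 2-fold lower numbered 8 (acinar-like over fibroblast-like), 5 (ductal-like over fibroblast-like), 4 (ductal-like over acinar-like) and 5 (cycling fibroblast-like), those higher 1 (cycling fibroblast-like) and 2 (cycling immune-like), the ratios were 0.583 (endothelial-like) and 2.79 (ductal-like over acinar-like), and the sums 272 (acinar-like), 260.1 (low nuclear RNA) and 200.4 CPM (endothelial-like). With all UMIs in the denominator, acinar-like over fibroblast-like had 1 gene higher and 11 lower, and ductal-like over acinar-like 20 higher and 0 lower. This denominator shifts the ratio of every gene against acinar-like cells alike, so these counts are no result about the set. The share of all genes past 2-fold was not computed under any setting of this paragraph. Its counts therefore cannot be set beside the shares given earlier. With all UMIs, the ratios were 2.18 (ductal-like over fibroblast-like) and 3.38 (over acinar-like), and the sums 219, 155.5 and 739 CPM (acinar-like, low nuclear RNA, ductal-like). As means of per-cell levels, the ductal-like ratios were 2.14 (fibroblast-like) and 2.48 (acinar-like, 0 lower), the sums 294 (acinar-like) and 730.3 (ductal-like), the *Mfap4* fibroblast-like cells had 0 higher and 9 lower, and cycling cells 1 higher and 5 lower (fibroblast-like) and 2 higher (immune-like). By clustering, the ratios were 0.784 (endothelial-like) and 1.95 (ductal-like over fibroblast-like), 0 genes were lower in ductal-like than acinar-like cells, and the sums were 312, 267, 659 and 266 CPM (acinar-like, low nuclear RNA, ductal-like, endothelial-like). The ductal-like over fibroblast-like early and late ratios were 1.87 and 2.01 by clustering and 1.78 and 1.84 with the median ratio of all genes set to 1, and the late ratio was 2.11 at the 10000-UMI limit and 2.15 as a mean of per-cell levels. The ductal-like over acinar-like early ratio was 3.98 at the 10000-UMI limit, 4.05 with all UMIs, 3.28 as a mean of per-cell levels and 2.06 with the median set to 1, and the late ratio 2.18 at the limit, 2.985 with all UMIs and 1.515 with the median set to 1. Clustering gave no macrophage-like class and so no value for it. With the median ratio of all genes set to 1, the ratios were 0.592 (endothelial-like), 1.05 (mesothelial-like), 1.81 (ductal-like over fibroblast-like) and 1.72 (over acinar-like, 7 genes higher), and T cell-like cells had 2 genes higher, as at a lower limit of 1500 UMIs and with no UMI minimum. Cycling immune-like cells had 2 higher with a stricter gate and with no UMI minimum. Without thinning, shares were 67.4% and 1.57% (*Lrp1*, fibroblast-like and T cell-like), 64.7% and 3.50% (*Scarb1*, endothelial-like and fibroblast-like) and 56% and 0.768% (*Abcg1*, dendritic-like and fibroblast-like). Restricting acinar-like and ductal-like cells to above 20000 UMIs, chosen after seeing the data, gave an acinar-like sum of 408 and ratio of 1.19. Joining both acinar-like classes, also chosen then, moved neither outside its interval. Removing doublets and a 5% mitochondrial limit moved no sum or ratio of sums outside its interval, and no count by over 1.5-fold. Of the single-gene ratios, 2 crossed a 2-fold limit at the 5% mitochondrial limit, and 1 moved over 1.5-fold without doublets.

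Single genes moved more. At the 10000-UMI limit, which left 202 acinar-like and 21 ductal-like cells, 43 of 260 gene ratios crossed a 2-fold limit and 38 moved over 1.5-fold, and of 52 gene levels 4 were lower and 1 higher by over 1.5-fold. *Hmgcs1* was then at 0.187 (acinar-like over fibroblast-like) and 9.33 (ductal-like over acinar-like), both resting on few acinar-like UMIs. With all UMIs in the denominator 54 of 270 ratios moved over 1.5-fold, all 27 of each comparison with acinar-like cells, and with means of per-cell levels 34. Per-cell means, the stricter gate and clustering each moved 1 level over 1.5-fold. Ratios whose interval had excluded 1 turned at the limit for *Sc5d* (acinar-like over fibroblast-like, 0.690), *Mvd* (0 UMIs), *Sqle* (0.803), *Sc5d* (0.937), *Scarb1* (0.805) and *Nr1h3* (1.496), all ductal-like over fibroblast-like, and *Hsd17b7* (0 UMIs) and *Nr1h2* (0.498), both ductal-like over acinar-like. With all UMIs, *Pmvk* (0.924), *Fdps* (0.968) and *Sc5d* (0.793) turned in acinar-like over fibroblast-like cells, and with per-cell means *Fdft1* (0.999, endothelial-like) and *Soat1* (1.19, ductal-like) did against fibroblast-like cells. Among the comparisons rerun, no other ratio of a gene of the set with such an interval turned. The alternative that rescaled the denominator to the median of all genes was not part of this check. Ratios of the SREBP machinery and of the further cholesterol genes were not rerun under any alternative. Nor were those of dendritic-like over fibroblast-like and of low nuclear RNA over other acinar-like cells.

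Small cell numbers limit the macrophage-like, Schwann-like and dendritic-like values most, and levels near those of red cell-like cells cannot be told from free RNA.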
